A study of Mus musculus with 4 samples.

Results

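The genes described here are 10 mouse genes of macrophages and Kupffer cells, the macrophages that live in the liver sinusoids. They were chosen by name and fall into 5 resident Kupffer cell genes (Cd5l, Clec4f, Marco, Adgre1 and Csf1r) and 5 other macrophage genes (Mmp12, Mpeg1, Lyz2, Cd14 and Cd68). All 10 were found among the 8251 genes that carry a name on the array, and 16 of the 12488 probe sets, the groups of short probes that each report one transcript, belonged to them. The choice was made with the difference between the genotypes already known, so the differences of these genes are given as a description and not as a test.

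Liver RNA was measured on 4 Affymetrix MG_U74Av2 arrays, 2 of hepatic reductase null mice (replicates 7 and 8) and 2 of control mice (replicates 7 and 8). The null allele is taken here to be a deletion of Por, NADPH-cytochrome P450 oxidoreductase, in hepatocytes, as in the known line of this name. The labels name neither the allele nor a Cre driver, and they give no strain, age or sex. Por was not analysed here, so the genotype was not checked on the arrays. The labels speak both of pools of 3 animals per genotype and of a single mouse, so p-values measure only the spread between these arrays, which may be technical. Albumin (Alb), the defining hepatocyte marker, lay between 8991 and 9809 on every array. It does not stand for all 8 hepatocyte markers tested. Of these, 5 had both null signals below both control signals, against 24% of all tested genes.

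Kupffer cells are seeded before birth and renew themselves in place, while monocytes from the blood can enter an injured liver and become macrophages there. Both depend on the receptor Csf1r and share lysosomal and lipopolysaccharide-sensing proteins, but the lectin Clec4f and the secreted scavenger protein Cd5l are used to recognise the resident cells in mouse. The livers of mice that lack the reductase in hepatocytes are known for an enlarged, fatty appearance.

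By group median, the macrophage genes outside the resident group carried the higher signals in null liver. The resident Kupffer cell genes stayed close to control by the same measure. Marco (0.56, log2) and Cd5l (0.30) of the resident group nonetheless had larger changes than Cd68 (0.27) of the other group. The median change, null minus control, was 1.10 on the log2 scale for the 5 other macrophage genes (2.15-fold) and 0.14 for the 5 resident Kupffer cell genes (1.10-fold), against -0.01 for all 5510 tested genes, of which the middle 50% lay between -0.21 and 0.21. These medians use the brightest probe set of a gene. Mmp12 enters with its lower bound, which does not move the median of its group. All 10 genes passed the filter on dim probe sets, Mmp12 only through its null signals. In the fit across all probe sets, limma with Benjamini-Hochberg adjustment, 2 of the 10 genes (Mmp12 and Mpeg1) were called higher at an adjusted p under 0.05 and 0 lower, where 0.309% of all tested genes were called higher and 0.0907% lower. Both null signals lay above both control signals in 7 of the 10 genes, 4 of the other macrophage genes and 3 of the resident ones, against 20.9% of all tested genes. No gene of the 10 had both null signals below both control signals, against 24% of all tested genes. Nothing is read from these shares, because the same contrast guided the choice of the genes.

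**Figure D1:**
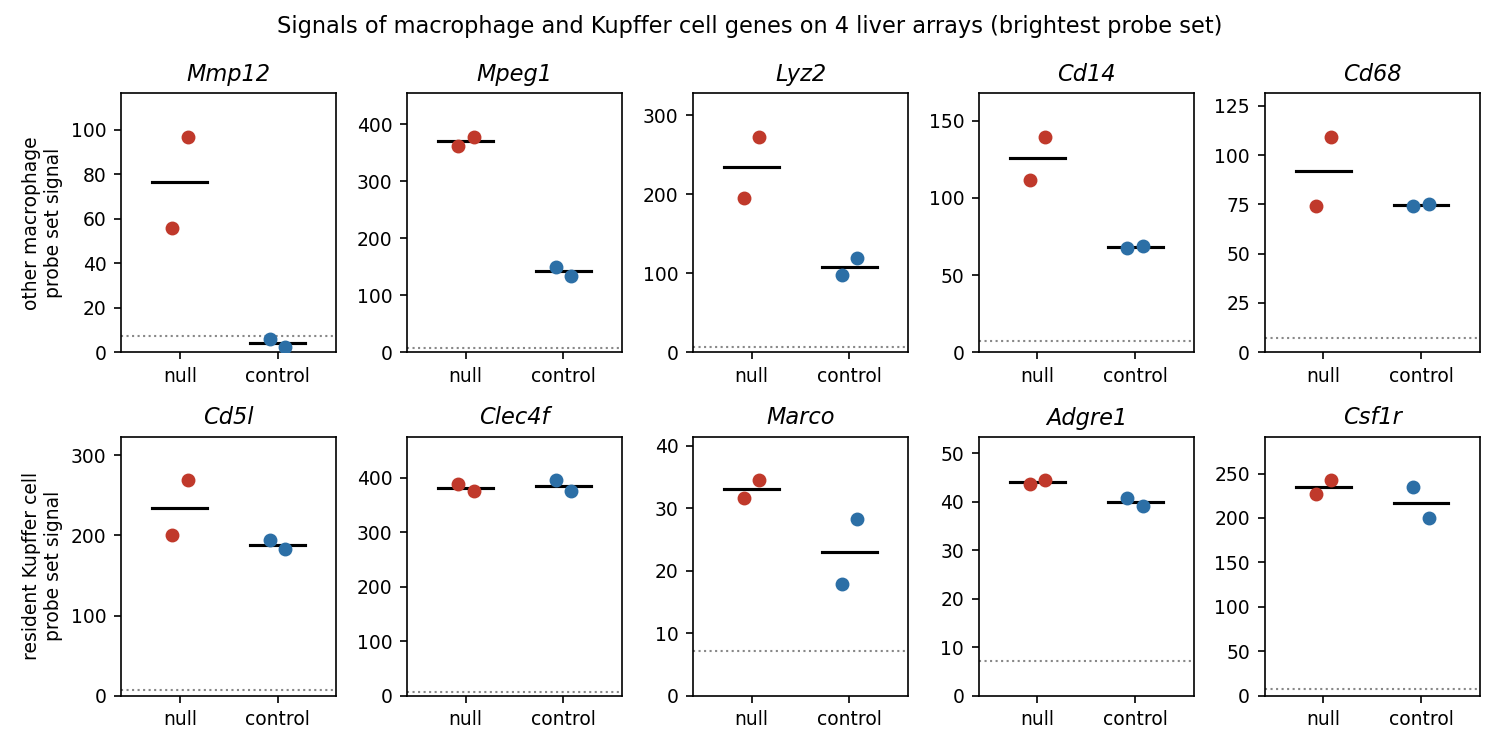
Probe set signal (linear scale, arbitrary units) of each gene on the null and control arrays, with a point per array, a bar at the mean of 2 arrays and a dotted line at the floor of 7.1. Mmp12, Mpeg1, Lyz2 and Cd14 in the upper row lie apart between genotypes, and Cd68 overlaps. In the lower row Clec4f and Csf1r overlap, while Cd5l, Marco and Adgre1 lie apart.

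The stretches of 250 bases before the transcription start are printed for the genes with a motif match there, and for Mpeg1, which had none, because it was called higher. They come from RefSeq (build GRCm38.p6), where 7 of the 10 genes had a window that can be shown, with 2 starts for Mmp12. Capitals mark matches on either strand to GAGGAAG (opposite strand CTTCCTC), of the type bound by the myeloid factor PU.1, to TTGCNNAA, of the type bound by C/EBP factors, and to TGANTCA, of the type bound by AP-1. These motifs do not overlap in the windows shown.
Mmp12, first start (chr9:7344147-7344396, plus strand): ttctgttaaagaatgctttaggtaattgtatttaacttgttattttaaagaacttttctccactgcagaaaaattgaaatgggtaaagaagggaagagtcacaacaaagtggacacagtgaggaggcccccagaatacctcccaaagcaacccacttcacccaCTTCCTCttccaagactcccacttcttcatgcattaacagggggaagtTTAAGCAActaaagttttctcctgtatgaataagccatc
Mmp12, second start (chr9:7347124-7347373, plus strand): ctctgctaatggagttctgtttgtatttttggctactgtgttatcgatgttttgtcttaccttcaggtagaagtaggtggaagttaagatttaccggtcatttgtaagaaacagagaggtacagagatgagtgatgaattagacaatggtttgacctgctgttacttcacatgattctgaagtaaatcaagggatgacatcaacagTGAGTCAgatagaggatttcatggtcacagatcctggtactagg
Mpeg1 (chr19:12460520-12460769, plus strand): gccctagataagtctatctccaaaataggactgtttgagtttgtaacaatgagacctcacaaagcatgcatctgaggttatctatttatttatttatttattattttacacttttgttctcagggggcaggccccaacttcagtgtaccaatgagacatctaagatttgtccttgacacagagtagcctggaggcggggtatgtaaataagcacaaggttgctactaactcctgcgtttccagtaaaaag
Cd68 (chr11:69666171-69666420, minus strand): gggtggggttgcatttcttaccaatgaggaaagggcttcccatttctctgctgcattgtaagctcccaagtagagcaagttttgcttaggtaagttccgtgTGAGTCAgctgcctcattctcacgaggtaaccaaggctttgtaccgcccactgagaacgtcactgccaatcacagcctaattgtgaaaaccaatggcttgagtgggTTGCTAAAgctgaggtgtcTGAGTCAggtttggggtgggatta
Cd5l (chr3:87357631-87357880, plus strand): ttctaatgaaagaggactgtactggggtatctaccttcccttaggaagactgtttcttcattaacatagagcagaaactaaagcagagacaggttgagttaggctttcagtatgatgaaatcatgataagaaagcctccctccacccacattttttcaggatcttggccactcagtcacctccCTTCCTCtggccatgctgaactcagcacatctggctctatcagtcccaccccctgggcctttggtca
Marco (chr1:120505025-120505274, minus strand): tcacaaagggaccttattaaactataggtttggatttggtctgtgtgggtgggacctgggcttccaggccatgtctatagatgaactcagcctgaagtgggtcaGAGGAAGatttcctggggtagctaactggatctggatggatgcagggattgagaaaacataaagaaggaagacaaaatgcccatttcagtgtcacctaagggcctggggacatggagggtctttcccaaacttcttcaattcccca

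The first start of Mmp12 had a PU.1-type match 87 bases before the start and a C/EBP-type match at 39 bases, and its second start had an AP-1-type match at 44 bases. Cd68 held AP-1-type matches at 149 and 24 bases and a C/EBP-type match at 43 bases. Among the resident genes, Cd5l had a PU.1-type match at 67 bases and Marco one at 146 bases. No match to these letters was found in the windows of Mpeg1, Lyz2 and Clec4f. Over all 32851 RefSeq windows of this length, 10.6% held the PU.1 type, 9.56% the C/EBP type and 6.75% the AP-1 type. A match is a description of the letters only.

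Mmp12 encodes macrophage elastase, a secreted metalloproteinase that cuts elastin and is made mainly by activated macrophages. Its brighter probe set gave signals of 55.7 and 96.9 in null liver, against 5.7 and 2.5 in control liver. Both control signals were below the floor, so the gene was at least 10.3-fold higher in null liver, and the groups lay far apart. The second probe set, made from the same deposited transcript, gave 33.2 and 54.2 in null liver, against 0.7 and 2.6 in control liver, at least 5.97-fold higher. This second probe set did not pass the threshold, with an adjusted p of 0.10 in limma. On both probe sets null replicate 8 was the brightest array and null replicate 7 the next.

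Among the listed metalloproteinases other than Mmp12, only Mmp14 was bright enough to be tested, and its null and control signals overlapped. In the mouse genome Mmp12 stands in a row of metalloproteinase genes, with Mmp13 on one side and Mmp1b and Mmp3 on the other. Mmp3, stromelysin 1, was below the floor on all 4 arrays, with at most 6.0 in null liver and 6.1 in control liver. Mmp13, a collagenase, gave 7.8 and 10.1 in null liver, against 13.1 and 2.5 in control liver, values that overlap and lie near the floor. Mmp11, stromelysin 3, gave 4.8 and 14.9 in null liver, against 24.3 and 19.7 in control liver, with both null signals below both control signals on a probe set too dim to be tested. Mmp7 gave 3.5 and 11 in null liver, against 2 and 3.1 in control liver. The brighter probe set of Mmp9 gave 10.6 and 5.2 in null liver, against 3.4 and 4.9 in control liver. Both had null signals above control signals but were too dim to be tested, with 1 null signal and both control signals below the floor. Of the 14 listed metalloproteinases and inhibitors other than Mmp12 on the array, 4 were bright enough to be tested. Of these 4, 0 were called higher and 0 lower in the same limma fit, with 0 at an unadjusted p under 0.05. Their log2 changes ran from -0.10 to -0.00. The membrane-bound Mmp14 gave 119.9 and 137.5 in null liver, against 130.2 and 126.8 in control liver, and the inhibitor Timp1 gave 65.7 and 65.5 in null liver, against 78.9 and 62.8 in control liver. Timp2 and Timp3, the remaining tested inhibitors, were at -0.06 ± 0.38 and -0.10 ± 0.18 (log2, SE).

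Mpeg1 encodes perforin-2, a pore-forming protein that macrophages direct against engulfed bacteria. Its signals were 361.4 and 377.9 in null liver, against 150 and 134.3 in control liver, and the arrays of each genotype lay close together. The mean was 369.65 ± 11.7 in null liver and 142 ± 11.1 in control liver (SD, n = 2 each), a log2 change of 1.38 ± 0.14 (SE, 2.60-fold). A second probe set of Mpeg1 was below the floor on all arrays and says nothing on the difference. Prf1, the perforin of cytotoxic lymphocytes, gave 5.7 and 11.1 in null liver, against 3.7 and 1.7 in control liver, and was too dim to be tested. Among complement proteins of plasma, made by hepatocytes, the pore-forming C9 was at -0.72 ± 0.12 (log2, SE). The C8 subunit C8g, which is not itself pore-forming, was at -0.33 ± 0.08. Both were in the direction opposite to Mpeg1, and 0 of these 2 passed the threshold.

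Lyz2 encodes the lysozyme of macrophages and neutrophils, which splits bacterial cell walls. It gave 195.7 and 273.1 in null liver, against 97.2 and 119.3 in control liver. The null arrays were both above the control arrays, with a log2 change of 1.10 ± 0.21 (SE, 2.15-fold), and null replicate 7 was at 0.717 of the signal of null replicate 8. The neighbouring gene Lyz1 is a near copy of Lyz2 and was not analysed here, so a share of its transcript in this signal cannot be told apart. A second probe set of Lyz2 was below the floor on all arrays.

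Cd14 encodes the surface protein that hands lipopolysaccharide to the receptor Tlr4. Its signals were 111.4 and 139.7 in null liver, against 67.3 and 69 in control liver, with a log2 change of 0.87 ± 0.19 (SE, 1.83-fold). The control arrays were nearly equal and both null arrays lay clearly above them. Hepatocytes can also make Cd14, which bulk RNA cannot separate from that of macrophages.

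Cd68 encodes a sialomucin of macrophage lysosomes. It was 74.2 and 109.4 in null liver, against 74.1 and 75.4 in control liver. Null replicate 7 lay within the control values and null replicate 8 alone lay above them, so the groups overlapped and the log2 change was 0.27 ± 0.23 (SE). Without null replicate 8 the change was -0.01. The second probe set of Cd68 was too dim to be tested. In bulk tissue, fewer or more cells of a type and less or more RNA per cell cannot be told apart, for this gene and for all others here.

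The resident genes differed less between genotypes. Clec4f, a galactose-binding lectin of Kupffer cells, gave 389.2 and 374.7 in null liver, against 395.6 and 375 in control liver. The groups overlapped, and the log2 change was -0.01 ± 0.11 (SE), with a 95% interval of the fit from -0.29 to 0.26. A change of the size seen for Mpeg1 lies outside that interval, and a change of under 0.26 in either direction lies inside it.

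Csf1r encodes the receptor for the macrophage growth factors CSF1 and IL-34. It gave 226.5 and 242.6 in null liver, against 235 and 199.4 in control liver, which overlap, with a log2 change of 0.11 ± 0.15 (SE, 95% interval -0.23 to 0.46). The second tested probe set of Csf1r gave 59.9 and 58.2 in null liver, against 74.3 and 58.6 in control liver, a change of -0.16 ± 0.21. The probe sets thus disagree in sign, and both changes are smaller than or close to their errors.

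Adgre1 encodes F4/80, the surface antigen used to stain mouse macrophages. It was 43.8 and 44.5 in null liver, against 40.9 and 39.1 in control liver, a separation of the groups with a log2 change of only 0.14 ± 0.24 (SE). Its second probe set was below the floor on all arrays. Cd5l, a secreted protein of Kupffer cells also called AIM, was 200.4 and 269.1 in null liver, against 194.6 and 182.7 in control liver. Null replicate 8 carried most of this difference of 0.30 ± 0.18 (log2, SE), and without it the change was 0.088. Marco, a scavenger receptor that binds bacteria and particles, was 31.7 and 34.5 in null liver, against 17.8 and 28.3 in control liver. Its control arrays lay further apart than its null arrays, and the change of 0.56 ± 0.37 (log2, SE) became 0.22 without control replicate 7 and 0.89 without control replicate 8.

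**Figure D2:**
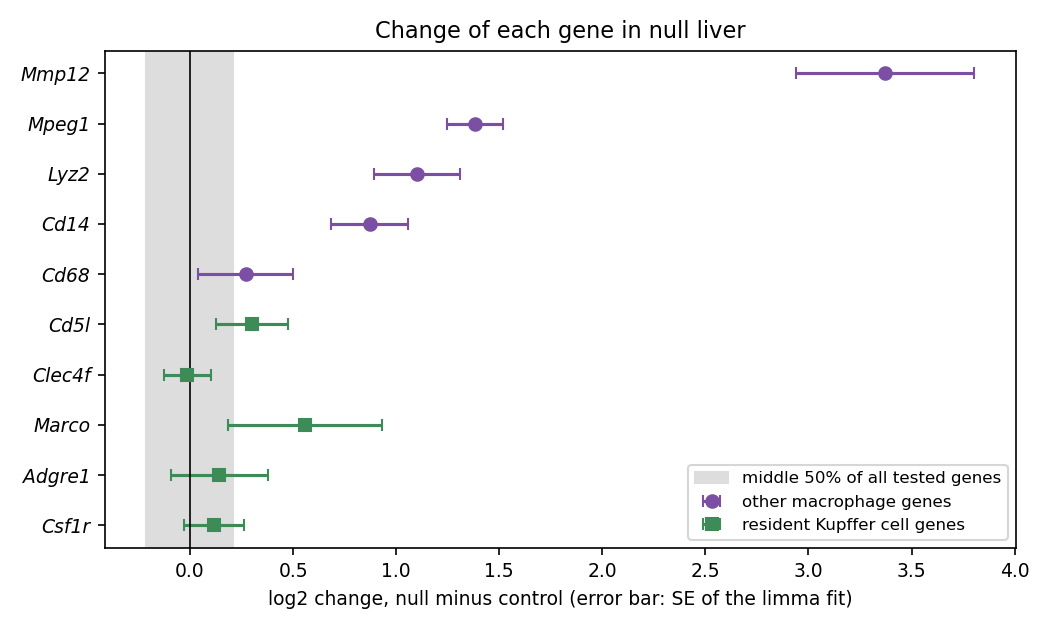
Log2 change (null minus control, horizontal axis) of the 10 genes with the SE of the limma fit as bars, and the middle 50% of all tested genes shaded. Mmp12 (3.37, a lower bound), Mpeg1 (1.38), Lyz2 (1.10) and Cd14 (0.87) lie to the right of the shaded band. So do Marco (0.56), Cd5l (0.30) and Cd68 (0.27), with bars that reach the band. Clec4f (-0.01) lies at its centre, and Csf1r and Adgre1 lie inside it.

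The null arrays were not alike in these genes. Null replicate 8 was brighter than null replicate 7 in 9 of the 10 genes, with Clec4f as the exception, while 53.3% of all tested genes were brighter on null replicate 8. Relative to the mean of the control arrays, the median of the 5 other macrophage genes was 0.86 on null replicate 7 and 1.34 on null replicate 8 (log2), against -0.01 and 0.01 on the control arrays. The resident genes had medians of 0.088 and 0.16 on null replicates 7 and 8, against 0.04 and -0.04 on the control arrays. The median of the other macrophage genes was thus further from control than that of the resident genes on each null array taken alone, but Cd68 was at -0.01 on null replicate 7, nearer to control than any of the 5 resident genes there. With 1 array each, the difference between the null replicates has no replicate check.

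**Figure D3:**
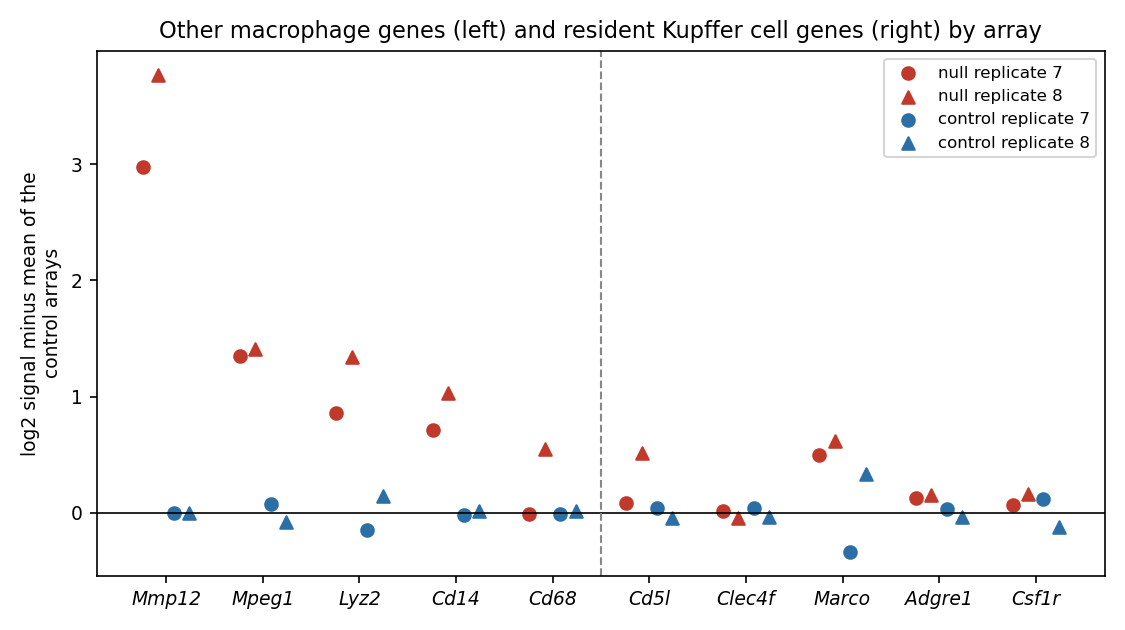
Log2 signal of each gene on each array minus the mean of its control arrays (vertical axis), with null arrays in red and control arrays in blue, circles for replicate 7 and triangles for replicate 8. Null replicate 8 lies above null replicate 7 in 9 of 10 genes, and the null arrays of Clec4f, Adgre1 and Csf1r lie at most 0.16 from the control mean.

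The calls of the fit rest on all 4 arrays. With any 1 array left out, 0 of the 10 genes were called at an adjusted p under 0.05 in limma, while 3 to 6 had an unadjusted p under 0.05. The change of Mpeg1 stayed between 1.30 and 1.46 with each array left out in turn. For Mmp12 this check is limited, because both control signals were set to the floor. Its lower bound was therefore 3.37 without either control array, and it was 3.77 without null replicate 7. Without null replicate 8 the gene fell below the filter, and null replicate 7 alone lay 2.97 above the floored controls. The size of the bound also depends on the floor, and raising the floor to 27.1 lowered it to 1.44.

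Genes that work with these 10 were followed in lists, with changes again taken from the brightest tested probe set. The lists hold 97 tested genes beside the 10, of which 0 were called higher and 0 lower, with 17 higher and 6 lower at an unadjusted p under 0.05 in limma. These are 17.5% and 6.19% of the 97, against 6.46% and 6.93% of all tested genes. Of the 97 genes, 69 (71.1%) had a positive change and 37 (38.1%) had both null signals above both control signals, against 48.5% and 20.9% of all tested genes. Their median change was 0.20 (log2). The lists were chosen with earlier results of these data known, so nothing is read from these shares or from those of the single lists below. Among the 97, Il1rn, Ncf4 and Fabp4, as well as Ccl2 and Ccl5, passed the filter on dim probe sets only through their null signals. The genes below are given by their values, with none past the threshold.

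Further Kupffer cell markers lay near 0, with 4 tested genes between -0.05 and 0.25 (median 0.05). Folr2, a folate receptor of resident macrophages, gave 97.8 and 86.0 in null liver, against 82.4 and 104.2 in control liver, a full overlap. The oxysterol receptor Nr1h3 was at -0.05 ± 0.14, the transcription regulator Id3 at 0.12 ± 0.14 and the phagosomal metal transporter Slc11a1 at 0.25 ± 0.21 (log2, SE). All 4 changes were close to or below their errors.

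Markers of monocytes and recruited macrophages had a higher median, 0.49 over 6 tested genes, 5 of them positive. The narrower list of monocyte markers had only 2 tested genes, 1 positive and 1 negative, with a median of 0.03. Lgals3, galectin-3, gave 46.8 and 64.0 in null liver, against 21.6 and 31.1 in control liver, a log2 change of 1.08 ± 0.32 (SE). Plac8, abundant in monocytes, was 149.7 and 140.1 in null liver, against 124.9 and 100.4 in control liver. Both genes had null arrays above the control arrays, whereas Itgax (0.38 ± 0.30), the integrin CD11c, and the fractalkine receptor Cx3cr1 (-0.30 ± 0.30) overlapped. Ccr2, the receptor that brings monocytes out of the marrow, was too dim to be tested, with 14.8 and 17.2 in null liver, against 10.8 and 1.3 in control liver.

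The ligands showed a like median. Of 17 genes of the CSF1 axis and the monocyte chemokines on the array, 8 were tested. All 8 had a positive change, against 48.5% of all tested genes, with a median of 0.53. Both null signals lay above both control signals in 5 of the 8, against 20.9% of all tested genes. Ccl2 and Ccl5 passed the filter on dim probe sets only through their null signals. Ccl2, which attracts monocytes through Ccr2 and is singled out here after its values were seen, gave 40.8 and 47.1 in null liver, against 4.4 and 12.3 in control liver. Both null arrays lay above both control arrays, with a log2 change of 2.23 ± 0.47 (SE) in which 1 control signal was below the floor, and it did not pass the threshold. Csf1, the ligand of Csf1r, was 68.4 and 84.4 in null liver, against 46.9 and 40.1 in control liver, a change of 0.81 ± 0.22. Ccl9, a chemokine with high signal in liver, was 865.4 and 910.4 in null liver, against 825.9 and 612.2 in control liver (0.32 ± 0.15). Cxcl1 (0.20 ± 0.18) and Ccl6 (0.44 ± 0.43) were within about their errors. Another, dimmer probe set of Cxcl1 was at 0.49 ± 0.23. The receptor Csf1r and its ligand Csf1 thus had changes of 0.11 and 0.81.

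**Figure D4:**
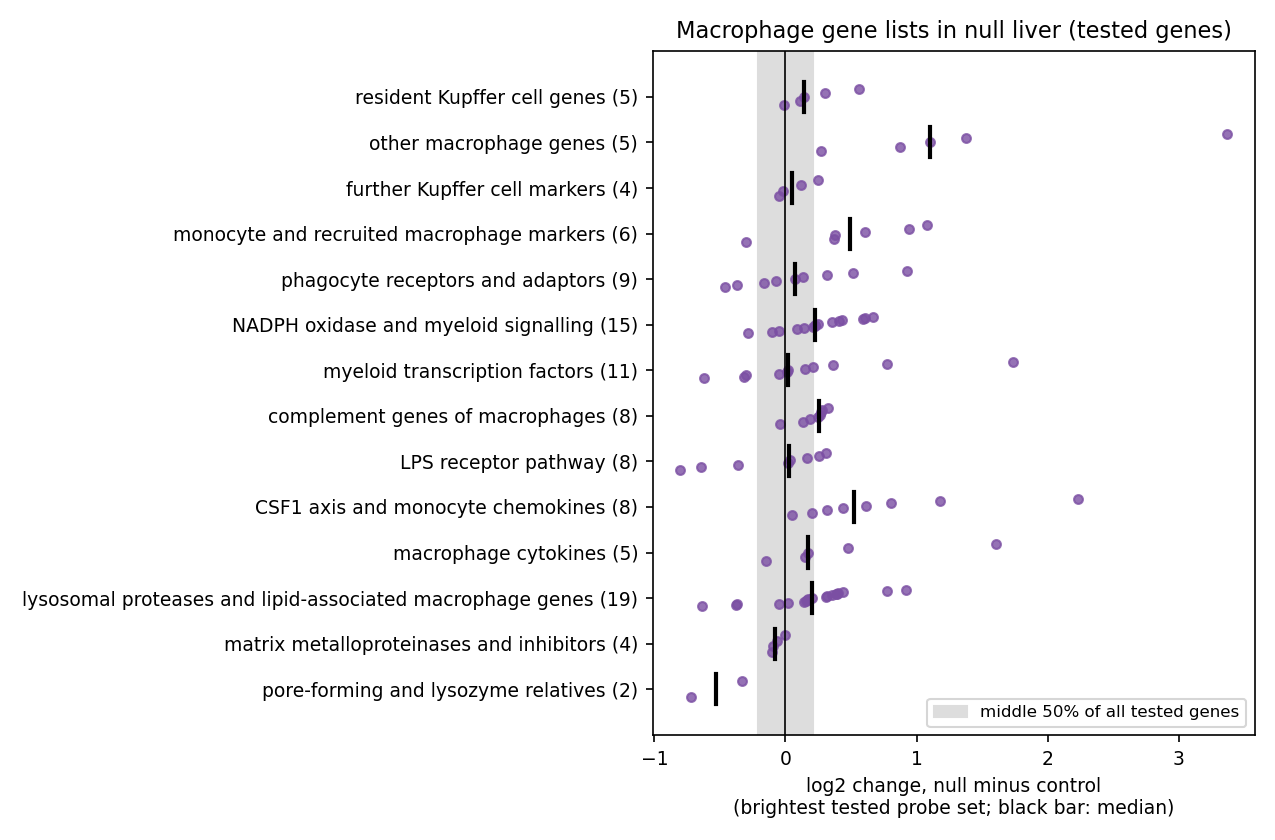
Log2 change (null minus control) of every tested gene of each list, with the number of tested genes in brackets, the median as a black bar and the middle 50% of all tested genes shaded. The medians of the monocyte and recruited macrophage markers (0.49) and of the CSF1 axis and chemokines (0.53) lie right of the band. That of the further Kupffer cell markers (0.05) lies inside it.

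Genes of the lipopolysaccharide pathway around Cd14 went both ways. Of 8 tested genes, 5 had positive and 3 negative changes, with a median of 0.03. Lbp, the plasma protein that delivers lipopolysaccharide to Cd14, gave 382.9 and 465.2 in null liver, against 420.3 and 403.6 in control liver. Rela, the p65 subunit of NF-kB, was at 0.02 ± 0.11, the kinase Irak1 at 0.17 ± 0.18 and the inhibitor Nfkbia at -0.36 ± 0.18, with 0.05 on another probe set of Nfkbia. The receptor Tlr4 and its partner Ly96 were not analysed here.

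Of 19 tested lysosomal and lipid-associated macrophage genes 15 had a positive change, against 48.5% of all tested genes, with a list median of 0.20. Both null signals lay above both control signals in 11 of the 19, against 20.9% of all tested genes. Fabp4, counted here, passed the filter on dim probe sets only through its null signals. Lamp1, a lysosomal membrane protein of all cells, was flat at -0.05 ± 0.07. The proteases Ctsb and Ctsl were at 0.17 ± 0.10 and 0.39 ± 0.13, and Psap, the precursor of the saposins, at 0.31 ± 0.08 (log2, SE). The dimmer tested probe sets of Ctsb were at -0.33 and 0.85 and those of Psap at -0.20 and 0.80, so the probe sets of both genes disagreed in sign. Hepatocytes express most of these genes as well.

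Subunits of C1q, which liver makes chiefly in macrophages, differed between genotypes by like amounts. C1qa gave 460.8 and 438.6 in null liver, against 368.0 and 381.6 in control liver, C1qb was at 0.27 ± 0.13 and C1qc at 0.28 ± 0.11 (log2, SE). Each subunit had both null arrays above both control arrays on its brightest probe set, and a dim second probe set of C1qb was at -0.25. Properdin (Cfp) was at 0.33 ± 0.26 and overlapped. Of 8 tested genes of this list 7 were positive, with a median of 0.26.

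Among phagocyte receptors the changes ran both ways, with 5 positive and 4 negative of 9 tested genes and a median of 0.07. Tyrobp, the adaptor of many myeloid receptors, was 153.8 and 201.6 in null liver, against 136.0 and 146.9 in control liver. The scavenger receptor Stab1 was at -0.07 ± 0.16, the inhibitory Fc receptor Fcgr2b at 0.07 ± 0.19 and the mannose receptor Mrc1 at -0.17 ± 0.20 (log2, SE). In the list of NADPH oxidase and myeloid signalling genes, 12 of 15 were positive with a median of 0.23. Cyba, the p22phox subunit of the oxidase, gave 178.8 and 182.3 in null liver, against 103.2 and 125.6 in control liver (0.67 ± 0.16, and 0.89 on another probe set), and Laptm5, a lysosomal protein of blood cells, was at 0.41 ± 0.14 (-0.07 on another probe set). Syk, a kinase downstream of phagocytic receptors, was at 0.14 ± 0.21 and the leukocyte antigen Cd52 at 0.36 ± 0.20.

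Transcription factors and cytokines had medians of 0.02 over 11 genes and 0.18 over 5 genes. Cebpa and Cebpb, which hepatocytes express strongly, were at -0.32 ± 0.07 and 0.21 ± 0.14. Egr1, an immediate early factor, gave 325.6 and 112.8 in null liver, against 47.7 and 69.3 in control liver, with the null arrays far apart. Tgfb1 was at 0.15 ± 0.33, Il18 at 0.18 ± 0.26 and Il1a at 0.47 ± 0.28, and Arg1, in liver mainly the urea cycle enzyme, at -0.15 ± 0.10 (log2, SE). Tnf was too dim to be tested, with 8.7 and 22.3 in null liver, against 3.9 and 5.0 in control liver.

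Over the 4 arrays, the profiles most like that of Mpeg1 were those of Entpd5, Olfr93, Chpf, Uhrf1 and Dclre1a, by the root mean square difference of centred log2 signals (0.11 to 0.14). Entpd5, a nucleotidase of the endoplasmic reticulum, gave 386 and 412.1 in null liver, against 187.8 and 138.2 in control liver. Of the 9 other genes described here, Lyz2 (rank 35 of 5510 genes) and Cd14 (rank 45) were nearest to Mpeg1. The ranks did not follow the split into resident and other genes. Marco (478) and Cd5l (749) of the resident group ranked nearer than Cd68 (988). Clec4f ranked 2347, and Mmp12, at 5209, was the furthest of the 9.

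Markers of other cells were summed over the genes on the array to show what else moved. The sum of 6 Kupffer cell markers, the 5 resident genes and Folr2, was 989.4 and 1051.4 in null liver, against 966.3 and 928.7 in control liver, with none of the markers at the floor on all arrays. The 6 pan-macrophage markers beside Mpeg1, Lyz2, Cd14 and Cd68 summed to 1609.6 and 1730.2 in null liver, against 1344.9 and 1406.4 in control liver. The 9 stellate cell and fibroblast markers summed to 1543 and 1838.9 in null liver, against 1203.4 and 1263.8 in control liver, with 8 of the 9 tested genes positive. The 9 neutrophil markers, which matter for Lyz2, summed to 197 and 294 in null liver, against 194.3 and 202.8 in control liver, with Ngp at the floor on all arrays and 3 of 5 tested genes positive. Of those positive genes, Camp and S100a8 passed the filter on dim probe sets only through their null signals. The 8 hepatocyte markers summed to 33942.5 and 32113.7 in null liver, against 35516.5 and 35469.8 in control liver, with 3 of the 8 tested genes positive and 5 negative. In 5 of the 8, both null signals lay below both control signals, against 24% of all tested genes. The 3 erythroid markers summed to 6117.3 and 5810.7 in null liver, against 7631.7 and 7232.3 in control liver. The 8 endothelial markers summed to 1145.8 and 1074.4 in null liver, against 939.3 and 952.9 in control liver, and the 5 monocyte markers to 231.2 and 203.3 in null liver, against 201.2 and 157.5 in control liver. Dendritic cell markers (5 genes) summed to 157.8 and 164.9 in null liver, against 159.2 and 174.2 in control liver. The 6 B and plasma cell markers summed to 204.8 and 243.2 in null liver, against 207.9 and 197 in control liver, and the 8 T and NK cell markers to 110.4 and 79.5 in null liver, against 55.6 and 79.4 in control liver. The 5 cholangiocyte markers summed to 79.3 and 144.8 in null liver, against 57 and 109.2 in control liver, and the 3 platelet markers to 42.4 and 16.6 in null liver, against 16.1 and 13.2 in control liver. Of these lists, the T cell gene Cd3d, the cholangiocyte gene Epcam and the platelet genes Pf4 and Gp1bb were at the floor on all arrays. Pancreatic acinar markers, which liver should lack, summed to 3173.8 on null replicate 7 and 306.5 on null replicate 8, against 280.1 and 400.1 in control liver. The acinar sum on null replicate 8 lay within the control values. Its member Reg1 was above control on both null arrays, with 142 and 65.4 in null liver, against 5.7 and 11.8 in control liver. The part of these other cell types' markers in the results was not tested.

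**Figure D5:**
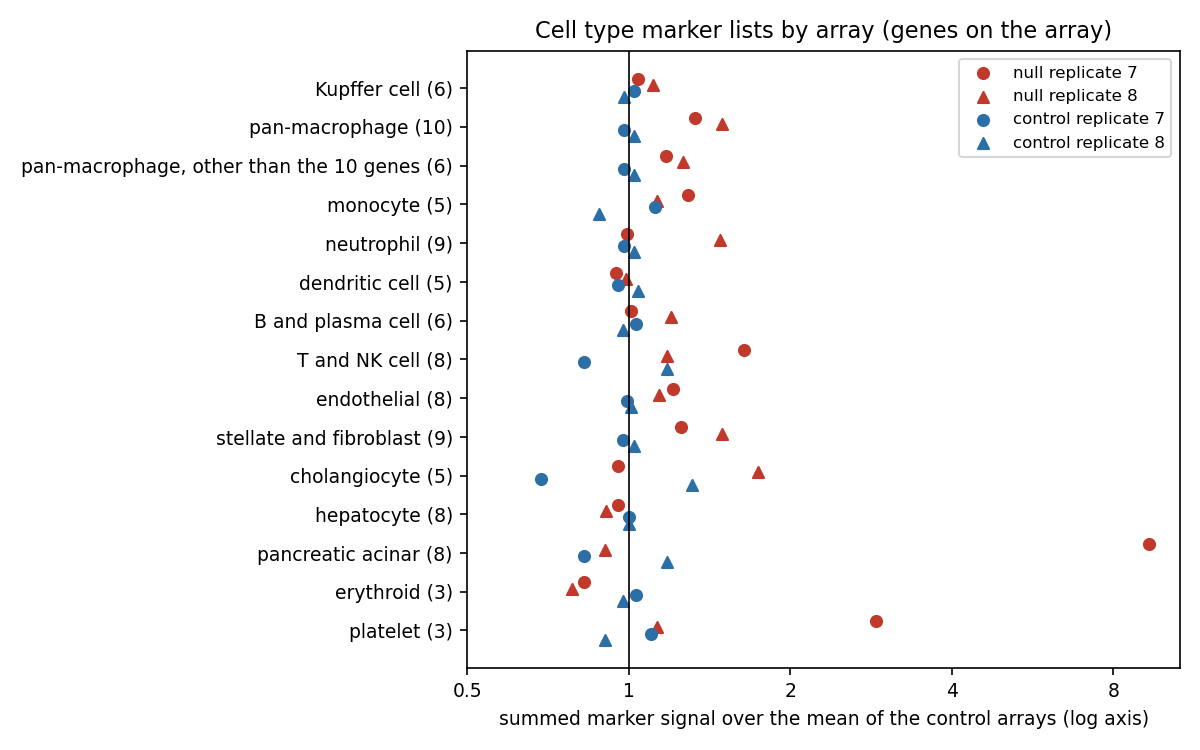
Summed signal of each cell type's markers on each array divided by the mean of the control arrays (log axis), with the number of genes on the array in brackets. The 10 pan-macrophage markers, which hold Mpeg1, Lyz2, Cd14 and Cd68, are at 1.33 and 1.49 on null replicates 7 and 8, and the 6 others among them at 1.17 and 1.26. Kupffer cell markers, mostly the 5 resident genes themselves, are at 1.04 and 1.11, and pancreatic acinar markers stand at 9.33 on null replicate 7 alone.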

How the data were processed

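Liver RNA was measured on 4 arrays, 2 null and 2 control. The authors deposited a linear intensity per probe set. It was derived in GCOS from paired matching and mismatching probes, and arrays were scaled by their summed fluorescence, per the labels' protocols. The software version is not given in the sources used here. Median signals were 26.1 to 28.4 per array, and the number of arrays limits the precision. The labels give no batch.

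Signals were floored at 7.1, the 25th percentile, and put on the log2 scale, here computed from the deposited intensity. Probe sets with a mean above 16.8, the 40th percentile, were tested, 7241 without the 66 control probe sets. Names came from the platform's annotation, updated through gene identifiers to GRCm38.p6. Of the other probe sets, 10833 had 1 symbol, 396 several and 1193 none, and the brightest tested probe set stood for each of 5510 genes. The genotypes were tested two-sided in limma 3.58.1 (R 4.3.3), using lmFit and then eBayes with a trend on intensity, and with Benjamini-Hochberg adjustment over the 7241 probe sets. The prior counted for 4.78 degrees of freedom beside 2 from the arrays. An exact permutation test of 2 against 2 arrays cannot go below a p of 0.333 and was not used. The fit and the adjustment were tested on simulated log2 signals, while the floor and the filter were not part of that test.

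The genes and lists were chosen with earlier results of these data known. Named genes are the 10 members, the 4 brightest tested genes of each list with any past the threshold, and the 5 profiles nearest to Mpeg1. Other genes are named for their place or role, after their values were seen. The labels give both genotypes the numbers 7 and 8 without saying that they mark a shared batch, so the numbers were not used as pairs. Alternatives were the floor, a pseudocount of 10, no filter, quantile normalisation, no trend, the mean of a gene's probe sets, a replicate block and leaving out each array.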

Additional observations from a re-analysis of the deposited data

How the results depend on the processing

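Over all probe sets, 22 were called higher and 6 lower in null liver, and 2 of the 10 genes were called higher. With a floor at the 50th percentile, without the filter on dim probe sets or without an intensity trend, limma called 0 higher and 0 lower probe sets and 0 of the 10 genes, while 4 or 5 of the 10 had an unadjusted p under 0.05. Quantile normalisation gave 12 lower and 30 higher probe sets. With 1 array left out at a time, the higher probe sets numbered 12 to 16 and the lower ones 0 to 4, with 0 of the 10 genes called. The mean of a gene's probe sets left 1 of the 10 genes called, Mpeg1. With the replicate block, 37 probe sets were higher and 15 lower, and 3 of the 10 genes were called (Mpeg1, Lyz2 and Mmp12). Deviations of the same-numbered arrays were not correlated (r = -0.03 over 7241 probe sets, which are not independent). This single correlation cannot tell whether same-numbered arrays shared a batch. The cause of these changes in the calls was not tested. The median change of the other macrophage genes ran from 0.79 (without null replicate 8, where Mmp12 fell below the filter) to 1.34 and that of the resident genes from 0.088 to 0.22 with an array left out, and neither moved by more than the spread between arrays under the other alternatives. Of 109 values of the 10 genes under the alternatives, 104 moved by less than that spread and 0 called values changed sign.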
